A study of Homo sapiens with 9 samples.

Results

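The genes described here make the enzymes that hydroxylate and crosslink collagen: the prolyl 4-hydroxylase subunits P4HA1, P4HA2 and P4HA3, the lysyl hydroxylases PLOD1, PLOD2 and PLOD3, and the lysyl oxidases LOX, LOXL1, LOXL2 and LOXL4. They are 10 of the 20037 protein-coding genes in the RefSeq gene table. An accessible region belonged to a gene when it touched the span of that gene, or lay within 50 kb of either end with that gene as the nearest protein-coding one. This gave 40 of 90962 regions in normoxia, 38 of 77451 in hypoxia and 29 of 62779 in hypoxia with ZHX2 knocked down. The cells were T47D, a luminal breast cancer line, and ATAC-seq read out accessibility: a transposase cuts open chromatin and tags it for sequencing. Control cells carried the hairpin shCtrl and were kept in normoxia or in hypoxia, and knockdown cells carried shZHX2 and were kept in hypoxia, with 3 samples in each group. The ZHX2 protein is a transcription factor with zinc fingers and homeodomains. All cells had been infected with lentivirus and selected, and neither the oxygen level nor the duration is given in the sources used here. No group combined shZHX2 with normoxia.

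Each group of 3 samples was represented by 1 list of called regions, without values per sample. No spread between replicates could be computed, so no comparison below has a test. A called region is one that passed the threshold the authors used for its list. The read number of a list is not given in the sources used here, and the shZHX2 list was the shortest. As a check of the cell type, 9 of 10 luminal epithelial marker genes had a region within 1 kb of the start in every list, ESR1 being the exception, against 2 of 8 stromal and endothelial and 2 of 4 blood marker genes. Either end of the gene was accepted where the strand was not given. Over all protein-coding genes the share was 71.4% in normoxia, 69.6% in hypoxia and 67.8% with shZHX2, so the luminal count alone says little about cell type.

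Collagen chains are modified in the endoplasmic reticulum before they fold and are secreted. Prolyl 4-hydroxylase makes the hydroxyproline that stabilises the triple helix, lysyl hydroxylases make the hydroxylysine used in crosslinks and for sugar attachment, and lysyl oxidases act outside the cell to turn lysine side chains into reactive aldehydes that form the crosslinks. The hydroxylases need molecular oxygen, iron and 2-oxoglutarate, as do the enzymes that mark the hypoxia-inducible factor HIF for destruction, and P4HA1, P4HA2, PLOD2 and LOX are known as genes that HIF induces. HIF binds a short DNA element with the core ACGTG or GCGTG, and in many cancers stiff, crosslinked collagen accompanies invasion.

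Promoter sequences are shown because those of P4HA1, PLOD2 and LOX lay in called chromatin in every list, while that of LOXL4 did not. Calls and cores did not always go together. The promoters of PLOD3 and P4HA2 hold no HIF core and lay wholly and partly in called regions in every list. That of LOXL1, also without the core, was called in none. RefSeq promoters (GRCh38.p14), which run from 250 bases before to 50 after the start, were found for 8 of the 10 genes, P4HA3 and LOXL2 being named only. The 250 bases before the start are given for P4HA1 and PLOD2, which hold the core, and for LOXL4, which holds none, and 30 bases round each of the 4 matches for LOX. Capitals mark ACGTG or GCGTG on either strand, so that CACGT and CACGC are the same cores read from the other strand.
P4HA1 (chr10:73096867-73097116, minus strand): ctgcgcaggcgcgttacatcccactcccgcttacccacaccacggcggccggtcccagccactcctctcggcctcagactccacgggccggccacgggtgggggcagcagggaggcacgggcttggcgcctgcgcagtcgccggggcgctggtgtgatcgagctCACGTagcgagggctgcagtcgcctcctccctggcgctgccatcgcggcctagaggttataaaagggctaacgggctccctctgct
PLOD2 (chr3:146161185-146161434, minus strand): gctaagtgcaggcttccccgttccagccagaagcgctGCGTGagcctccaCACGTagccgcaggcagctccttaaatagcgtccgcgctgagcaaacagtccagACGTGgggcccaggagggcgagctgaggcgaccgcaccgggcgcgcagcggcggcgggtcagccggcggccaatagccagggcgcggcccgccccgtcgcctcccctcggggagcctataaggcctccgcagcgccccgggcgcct
LOXL4 (chr10:98268195-98268444, minus strand): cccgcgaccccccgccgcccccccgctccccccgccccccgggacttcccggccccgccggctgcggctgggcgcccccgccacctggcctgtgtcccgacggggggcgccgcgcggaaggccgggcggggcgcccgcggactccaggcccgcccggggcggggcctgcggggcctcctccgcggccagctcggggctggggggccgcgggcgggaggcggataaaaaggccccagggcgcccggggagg
LOX (chr5:122078427-122078456, minus strand): gctccctgtgcaACGTGtctggggggagga
LOX (chr5:122078358-122078387, minus strand): ctgtccgccttgCACGTttccaatcgcatt
LOX (chr5:122078340-122078369, minus strand): tccaatcgcattACGTGaacaaatagctga
LOX (chr5:122078284-122078313, minus strand): gtaactttgcaaACGTGccagaaagtttaa

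On either strand, ACGTG was found in the promoters of P4HA1, PLOD2 and LOX, and GCGTG in those of PLOD1 and PLOD2. Of all 35116 RefSeq promoters of this length, 21.4% held ACGTG and 36.5% held GCGTG, and 48.4% held at least 1 of them, against 4 of these 8 genes. The number of matches was 4 in LOX, 3 in PLOD2, 2 in PLOD1 and 1 in P4HA1. RefSeq gave 3 promoters for LOX and 1 for each of the others. For LOX only the promoter with its start at 122078259 is described here. In LOX the first bases of the matches lay 185, 116, 98 and 42 bases before the start, and in P4HA1 86 bases before it. All 10 matches lay inside a called region in each of the 3 lists. This follows from the coverage of the 4 promoters that hold them, at least 299 of 300 bases in each list. The PLOD3 promoter, without a match, was covered over all 300 bases as well. The matches describe the sequence and do not show that HIF was bound.

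Other motifs differed between the promoters. GGGCGG, the core bound by SP factors, occurred in PLOD1, PLOD2, PLOD3, LOX and LOXL4, with 7 matches in LOXL4, and in 45.0% of all promoters. CCAAT was found in P4HA2, PLOD2 and LOX (34.6% of all promoters) and TATAAA in P4HA1 (11.5%). None of the 8 promoters held CACGTG (7.26% of all promoters), which contains ACGTG, or the AP-1 motif TGANTCA (7.71% of all promoters), the GATA motif AGATAA (10.3%), the forkhead motif TGTTTAC (3.42%) or the palindromic oestrogen response element without mismatches (0.057%). GC content was 55.7% in P4HA2 and 58.0% in LOX, near the median of 58.7% over all promoters. It was 67.3% in LOXL1, 69.0% in PLOD3, 70.3% in P4HA1, 71.0% in PLOD1, 72.0% in PLOD2 and 85.3% in LOXL4. The LOXL4 value was above that of 99.8% of all promoters.

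Called regions covered all 300 promoter bases of P4HA1, PLOD1, PLOD2 and PLOD3 in each list. For LOX they covered 300, 300 and 299 bases in normoxia, hypoxia shCtrl and hypoxia shZHX2, and for P4HA2, whose RefSeq promoter lies inside the annotated span, 209, 236 and 171. No base of the LOXL1 and LOXL4 promoters was covered in any list.

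Most called sites of the collagen hydroxylases and lysyl oxidases were shared by the 3 lists, as were most sites of the whole series. Merged over the lists, the regions of the 10 genes formed 42 sites, of which 28 were called in all 3 lists (66.7%, Wilson 95% interval 51.6 to 79.0, against 58.4% of all 97804 sites of the series). The series share lies inside this interval. Another 8 sites were called in both shCtrl lists and not with shZHX2 (19.0%, against 15.3%), and 4 in normoxia only (9.52%, against 16.7%). The 2 remaining sites were called in hypoxia and not in normoxia: 1 near P4HA1 in both hypoxia lists, a pattern of 0.75% of all sites, and 1 near PLOD2 in hypoxia with shCtrl only, a pattern of 4.34%. No site of these genes was called with shZHX2 alone or in normoxia and shZHX2 without hypoxia shCtrl, patterns of 2.05% and 2.44% of all sites. With 42 sites, a count of 0 allows a share of up to 7.14%, so these patterns were not detectably rarer here. The intervals cover counting error only, and sites are not replicates of a condition.

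**Figure D1:**
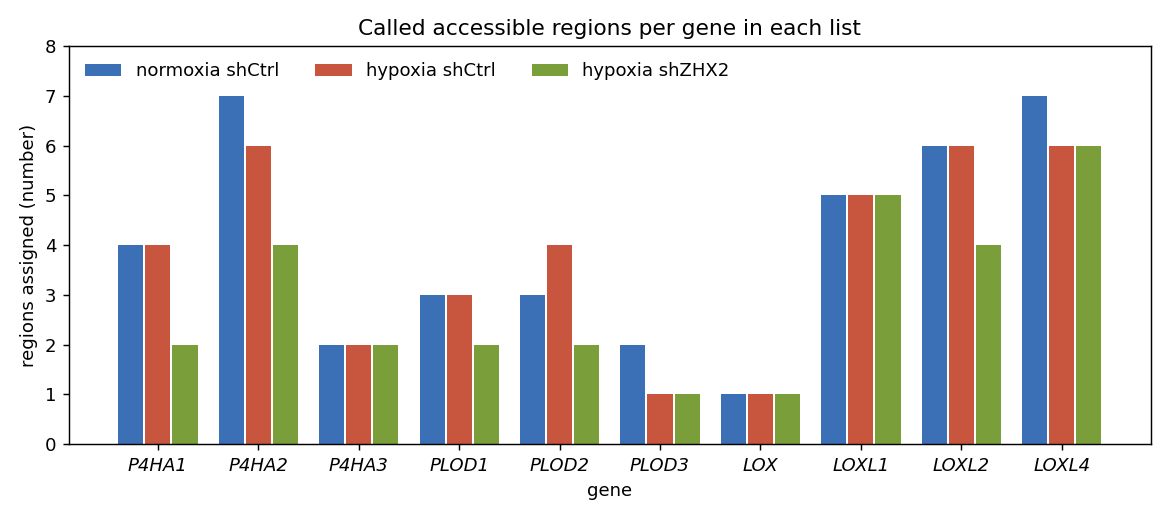
Number of called regions (vertical axis) assigned to each of the 10 genes (horizontal axis) in the lists for normoxia with shCtrl (blue), hypoxia with shCtrl (red) and hypoxia with shZHX2 (green). P4HA3, LOX and LOXL1 have equal bars in the 3 lists, and P4HA2 goes from 7 to 6 and 4.

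Regions per gene ranged from 1 to 7 in normoxia, with a median of 3.5, from 1 to 6 in hypoxia, with a median of 4.0, and from 1 to 6 with shZHX2, with a median of 2.0. Over all protein-coding genes the medians were 3.0, 2.0 and 2.0. The means lay closer together, at 4.0, 3.8 and 2.9 for the 10 genes and 3.84, 3.31 and 2.77 over all protein-coding genes. P4HA3, LOX and LOXL1 had the same number of regions in each list, 2, 1 and 5. Widths had medians of 612, 502.5 and 556 bp in normoxia, hypoxia shCtrl and hypoxia shZHX2, where the whole lists had 496, 463 and 474 bp.

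All 10 genes had a region in every list within 1 kb of the start, or of either end where RefSeq promoters did not give the strand. The same rule was met by 71.4% of protein-coding genes in normoxia, 69.6% in hypoxia and 67.8% with shZHX2. The strand was not given for P4HA3 and LOXL2. For LOXL2 the region counted lay at the end at 23296897, over an end of the neighbouring gene R3HCC1, and was assigned to R3HCC1. The region nearest the other end of LOXL2 lay 6162 bp away in normoxia. Whether the start of LOXL2 was called therefore cannot be said here. The other 9 of the 10 genes had a region of their own at the start or, for P4HA3, at 1 end. With 250 bp in place of 1 kb the count was 8 in each list, without LOXL1 and LOXL2.

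P4HA1 encodes the main catalytic subunit of prolyl 4-hydroxylase and spans 73007217 to 73096866 on chromosome 10 (hg38). Its start was covered by a strong, broad region in each list, at 73095743 to 73097256 in normoxia. The authors' fold enrichment of that region over the local background was 6.14 in normoxia, 6.34 in hypoxia and 6.16 with shZHX2, each relative to its own list, and its score lay above about 9 in 10 regions of each list. Inside the gene, 2 regions were called in both shCtrl lists and not with shZHX2. The first, at 73017881 to 73018862 in normoxia, had folds of 3.94 in normoxia and 3.16 in hypoxia, and the second, at 73061088 to 73061399, had 3.85 and 3.39. Another, narrow region at 73021908 to 73022107 was called in normoxia only, with a fold of 2.79.

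A region beyond the far end of P4HA1 from its start was called in hypoxia and not in normoxia. It lay at 72980678 to 72982269 in hypoxia with shCtrl, 24948 bp outside the gene, with a fold of 2.77, and at 72980813 to 72981734 with shZHX2, with a fold of 3.12. In normoxia the closest region was 35612 bp away. The next protein-coding gene, PLA2G12B, a secreted phospholipase A2 homologue, lay 25872 bp from it, and a ribosomal protein pseudogene, RPL17P50, lay closer than P4HA1, at 23524 bp. It belonged to the weakest 10% by score of both hypoxia lists. In that decile 25.2% of hypoxia shCtrl regions were not called in normoxia.

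P4HA2, a second catalytic subunit, spans 132190147 to 132227853 on chromosome 5 and had the most regions that differed beside P4HA1. The span end at 132227853, taken as its start, was covered in each list, at 132227133 to 132228300 in normoxia. The folds were 6.61 in normoxia, 6.36 in hypoxia and 7.16 with shZHX2. The RefSeq promoter described above has its start at 132227091, inside the gene, which this region did not reach in any list. A region inside the gene, at 132215217 to 132215800, had a fold of 7.21 in normoxia and belonged to the eighth score decile there. In hypoxia it was called at 132215405 to 132215747 with a fold of 3.58, in the third decile, and with shZHX2 it was not called. Among all normoxia regions of the eighth decile, 1.61% were not called with shZHX2, a comparison that differs in both oxygen and hairpin. Within hypoxia, 49.3% of all shCtrl regions of the third decile were not called with shZHX2. The P4HA2 region was, by its normoxia value, the strongest of the 10 genes that was missing from any list.

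The flanks of P4HA2 held both shared and differing regions. On the side away from the start, the region at 132180128 to 132180977 was called in all 3 lists, with folds of 4.29, 3.83 and 3.85 in normoxia, hypoxia shCtrl and hypoxia shZHX2, and the region at 132182519 to 132182827 was called in both shCtrl lists only, with 3.19 and 2.80. On the other side, a strong region at 132238194 to 132238666 was called in all 3 lists, with folds of 7.52, 7.73 and 6.68, and a weak neighbour at 132237288 to 132237592 was called in normoxia only, with 3.01. A region just inside the far end of the gene, where the antisense gene P4HA2-AS1 overlaps, was called in all 3 lists with folds of 3.91, 3.59 and 5.59.

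P4HA3, another catalytic subunit, spans 74250146 to 74311640 on chromosome 11 and had the same 2 sites in every list. The region at one end, at 74311063 to 74311885 in normoxia, also touches the antisense gene P4HA3-AS1 and had folds of 7.12, 8.64 and 8.40 in normoxia, hypoxia shCtrl and hypoxia shZHX2. The region inside the gene had folds of 4.14, 4.63 and 5.77.

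**Figure D2:**
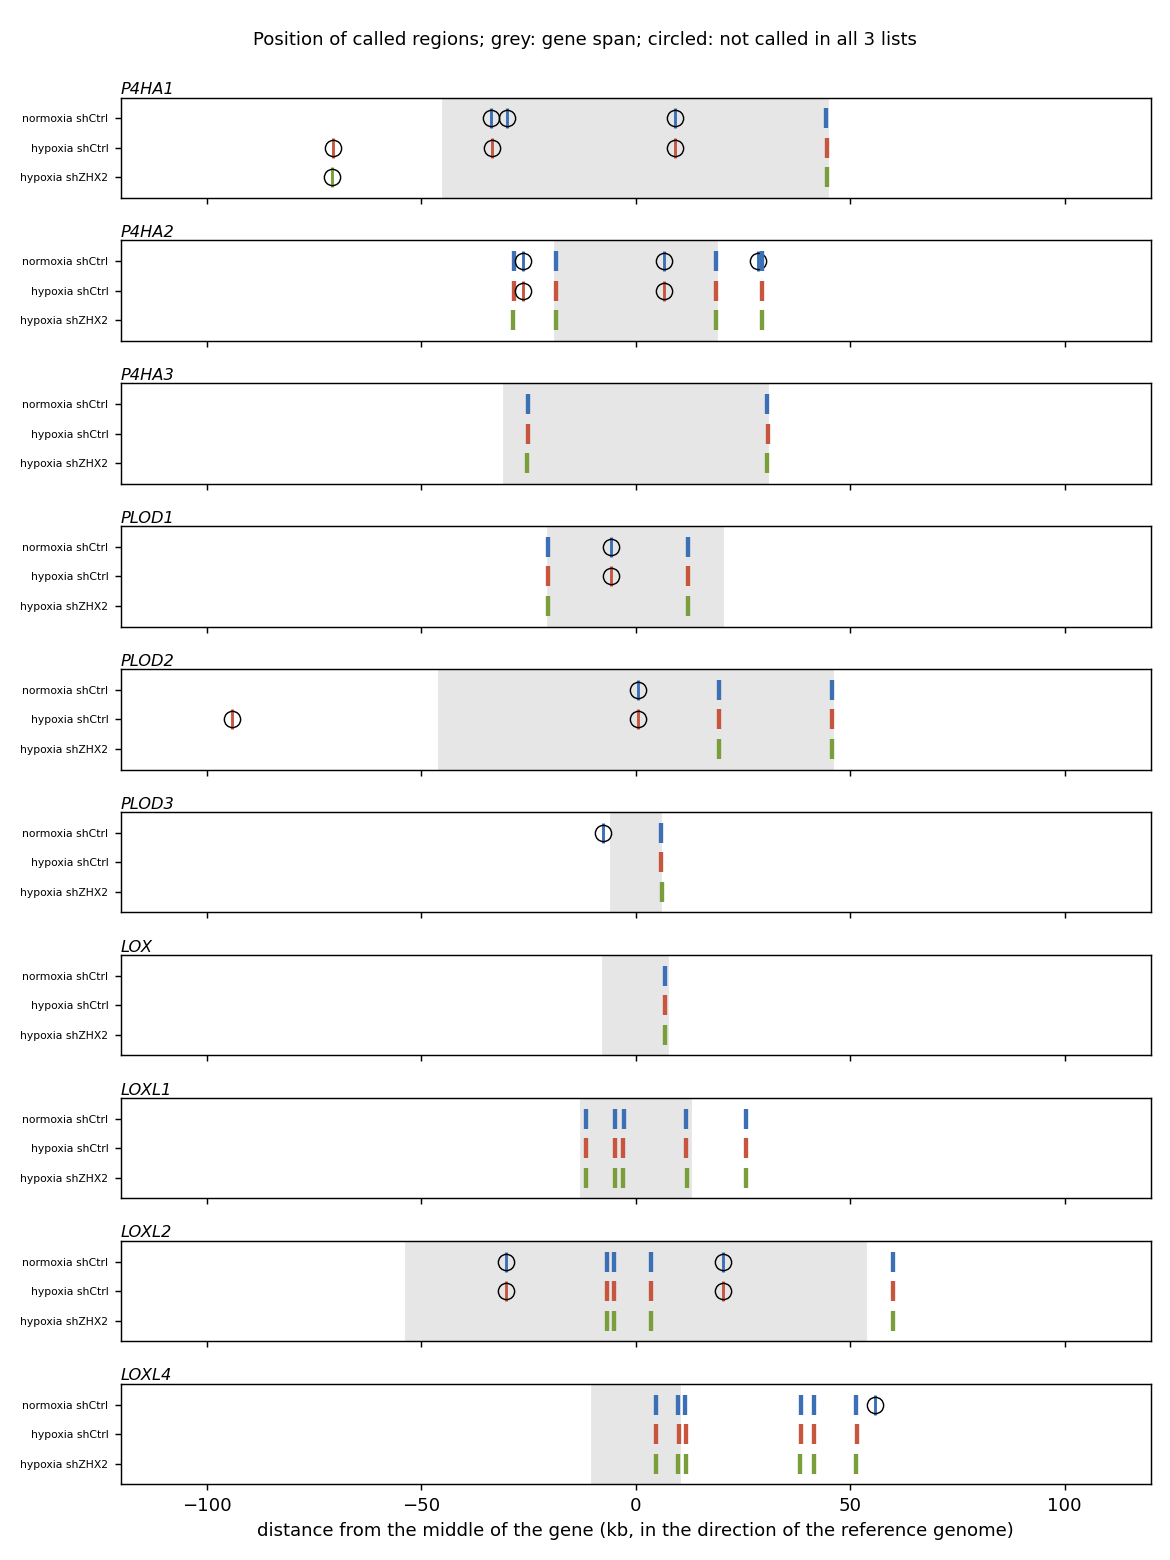
Positions of the called regions of each gene, as distance in kb from the middle of the gene in the direction of the reference genome, with 1 row per list and the gene span in grey. Ticks mark region centres and are not drawn to width, and circles mark the 14 sites that were not called in all 3 lists, none of which lies at the start of a gene.

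The lysyl hydroxylases differed at 4 sites in all, none of them at a start. PLOD1, which acts mainly on lysines in the collagen helix, spans 11934717 to 11975537 on chromosome 1. The region over its start had folds of 7.005 in normoxia, 5.71 in hypoxia and 5.84 with shZHX2. A stronger region inside the gene, at 11967030 to 11967565 in normoxia, had folds of 9.56, 10.36 and 10.34, the highest of the 10 genes in each list. The region at 11949137 to 11949432 was called in both shCtrl lists only, with folds of 4.69 and 4.01.

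PLOD2, the lysyl hydroxylase of the collagen telopeptides and the one that sets the type of crosslink, spans 146069440 to 146161184 on chromosome 3. Its start lay in a region of 1615, 1614 and 1627 bp in normoxia, hypoxia shCtrl and hypoxia shZHX2, with folds of 5.24, 5.33 and 5.46, and this region had the highest score of the 10 genes in every list. Of 2 regions inside the gene, that at 146134537 to 146134912 was called in all 3 lists with folds of 3.72, 3.44 and 3.82. That at 146115395 to 146116150 was called in both shCtrl lists only, with 4.12 and 2.83. A region at 146021074 to 146021324, 48116 bp outside the gene, was called in hypoxia with shCtrl and in neither other list, with a fold of 3.08 in the second score decile, where 20.2% of hypoxia regions were not called in normoxia and 62.4% were not called with shZHX2. The noncoding gene LNCSRLR lay closer to it than PLOD2.

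PLOD3, which combines lysyl hydroxylase with glycosyltransferase activity, spans 101205984 to 101217581 on chromosome 7. The single region of the hypoxia lists covered its start together with an end of the neighbouring gene ZNHIT1, and had folds of 4.82, 5.36 and 5.96 in normoxia, hypoxia shCtrl and hypoxia shZHX2, so that it cannot be assigned to PLOD3 alone. A region at 101204055 to 101204260, 1724 bp outside the other end and over the pseudogene RPSAP46, was called in normoxia only, with a fold of 3.10.

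Among the lysyl oxidases, LOX and LOXL1 had the same sites in each list. LOX, the founding member of the family, spans 122063195 to 122078259 on chromosome 5. Its only region ran over the start in each list, at 122076684 to 122078565 in normoxia, and was the widest of the 10 genes there, with 1882 bp, 1837 bp in hypoxia and 1830 bp with shZHX2. The folds were 4.47, 4.55 and 4.65. The same stretch lies within the annotated span of SRFBP1, a gene for a cofactor of serum response factor.

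LOXL1, a lysyl oxidase needed for elastic fibres, spans 73926462 to 73952136 on chromosome 15 and had 5 sites, all called in each list. The one nearest the start, at 73927076 to 73928288 in normoxia, began 614 bp inside the gene and overlapped the antisense gene LOXL1-AS1. Its folds were 5.85 in normoxia, 5.99 in hypoxia and 6.06 with shZHX2. The strongest by fold lay 12549 bp beyond the far end, at 73964685 to 73965324, with folds of 8.62, 8.14 and 7.25.

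LOXL2, a secreted oxidase linked to invasion in breast cancer, spans 23296897 to 23404120 on chromosome 8 and had 6, 6 and 4 regions in normoxia, hypoxia shCtrl and hypoxia shZHX2. The strongest lay 6162 bp outside the gene in normoxia, at 23410282 to 23410799, and had folds of 8.85, 8.59 and 9.36. Inside the gene, 3 regions that also touch LOXL2-AS1 were called in all 3 lists, among them that at 23343295 to 23344177 with folds of 5.34, 3.96 and 4.38. The regions at 23320045 to 23320356 and 23370637 to 23370935 were called in both shCtrl lists only, with folds of 4.21 and 3.11 for the former and 3.41 and 3.13 for the latter.

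LOXL4, a lysyl oxidase with scavenger receptor domains like LOXL2, spans 98247690 to 98268194 on chromosome 10. No region covered its start: in normoxia 1 ended 78 bp inside the gene (98267374 to 98268116, fold 2.18) and another began 667 bp outside it (98268861 to 98269796, fold 2.72). In hypoxia and with shZHX2 the inner region ended 106 and 67 bp from the start, with folds of 2.34 and 2.57. At a −log10 q of at least 20, this gene had no region at the start in the hypoxia lists. The strongest regions of LOXL4 by fold lay farther off, at 98299290 to 98299749, 98308689 to 98310012 and, inside the gene, 98262494 to 98262976, with folds of 5.42, 5.14 and 5.34 in normoxia, and each was called in all 3 lists. A region 45483 bp outside the gene, at 98313677 to 98313893, was called in normoxia only, with a fold of 2.08.

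**Figure D3:**
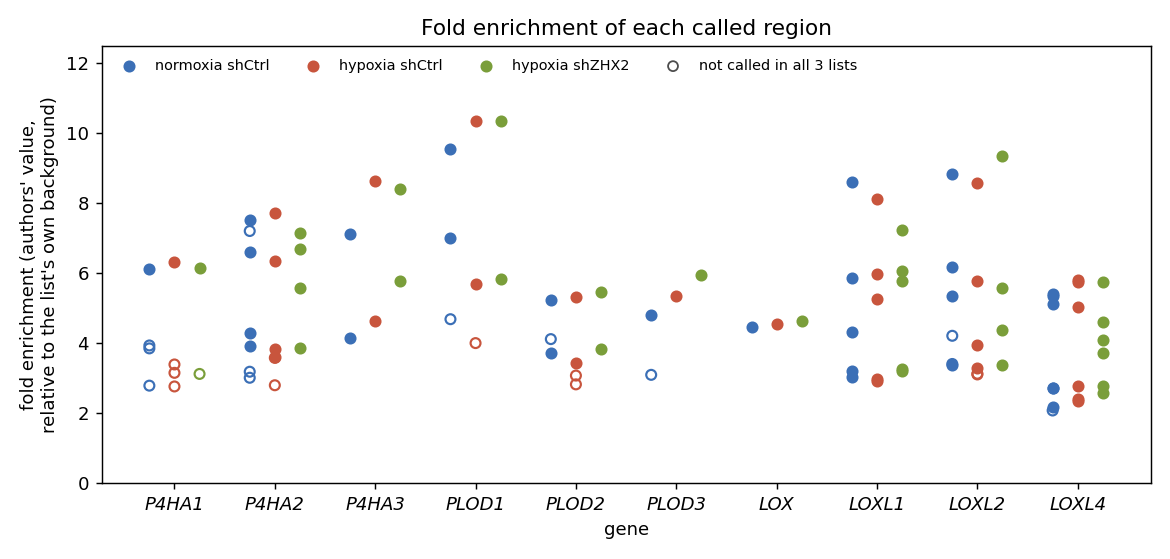
Fold enrichment (vertical axis, the authors' value relative to the local background of each list) of every called region of the 10 genes, for normoxia with shCtrl (blue), hypoxia with shCtrl (red) and hypoxia with shZHX2 (green). Open circles are regions not called in all 3 lists, and all but the P4HA2 region with a fold of 7.21 in normoxia have folds of at most 4.69.

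The first comparison set hypoxia against normoxia in shCtrl cells and asks where chromatin opens or closes when oxygen falls. In normoxia, P4HA1, P4HA2, PLOD3 and LOXL4 each had 1 region that was not called in hypoxia. These 4 of 40 regions (10.0%, Wilson 95% interval 3.96 to 23.1) stand against 20.6% of all normoxia regions. They had folds of 2.08 to 3.10 and came from the weakest 2 score deciles, where 73.4% and 57.4% of normoxia regions were not called in hypoxia. In the weaker 50% of the list it was 4 of 18 (22.2%, against 40.6% of all regions there), and in the stronger 50% 0 of 22, which allows up to 13.6% (against 0.598%). In the other direction 2 of 38 hypoxia regions were not called in normoxia (5.26%, 1.46 to 17.3, against 6.44% of all hypoxia regions), those near P4HA1 and PLOD2. The series share of 20.6% lies inside the interval of the former, and 6.44% inside that of the latter. By gene, 4 of 10 had a normoxia region not called in hypoxia and 2 of 10 the reverse, against 42.2% and 15.6% of protein-coding genes with a region. With regions assigned within 20 kb, no hypoxia region of these genes was missing from normoxia.

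The second comparison set shZHX2 against shCtrl within hypoxia and asks where accessibility goes with ZHX2. P4HA1, P4HA2, PLOD2 and LOXL2 each had 2 regions that were called with shCtrl and not with shZHX2, and PLOD1 had 1. P4HA3, PLOD3, LOX, LOXL1 and LOXL4 had none. The 9 of 38 regions (23.7%, Wilson 95% interval 13.0 to 39.2) stand beside 25.0% of all hypoxia shCtrl regions, a share near the background, and 5 of 10 genes beside 43.2%. Of all 38 regions 27 touched the span of their gene, against 7 of these 9, which had folds of 2.80 to 4.01. All came from the weaker 50% of the list, where 9 of 19 regions of these genes were not called with shZHX2 (47.4%, against 48.0% of all regions there), and 0 of the 19 in the stronger 50%, which allows up to 15.8% (against 2.10%). Of these 9, 8 had also been called in normoxia. In the whole series too, sites in both shCtrl lists and not with shZHX2 (15.3% of all sites) outnumbered those in hypoxia shCtrl only (4.34%).

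In the other direction, none of the 29 regions called with shZHX2 was missing from hypoxia with shCtrl, which allows a share of up to 10.3%, against 7.11% of all shZHX2 regions. This one-sided split changed when the lists were cut to equal length. When every list was cut to 62779 regions by score, 3 hypoxia shCtrl regions of these genes lacked a call with shZHX2, and 5 lacked one the other way round. When the lists were cut to that length by fold enrichment, it was 6 in each direction. The cut lists held 27 shCtrl and 29 shZHX2 regions of these genes by score, and 29 each by fold. These totals largely fix the difference between the 2 directions, so the cut does not show where the split came from.

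The normoxia shCtrl and hypoxia shZHX2 lists differ in both oxygen and hairpin, so the effects of oxygen and of the hairpin cannot be told apart. This comparison was added after the data were seen. Of 40 normoxia regions, 12 were not called with shZHX2 (30.0%, Wilson 95% interval 18.1 to 45.4, against 34.5% of all normoxia regions), at P4HA1 (3 regions), P4HA2 (3), LOXL2 (2), PLOD1, PLOD2, PLOD3 and LOXL4 (1 each). In the other direction it was 1 of 29, the region beyond P4HA1 (3.45%, against 4.39%). With the lists cut to equal length, the counts were 6 and 6 by score and 7 and 7 by fold enrichment. Either cut left 29 regions of these genes in each of the 2 lists, so equal counts in both directions follow nearly by construction. With the first list alone held to a −log10 q of at least 20, they were 6 and 0.

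**Figure D4:**
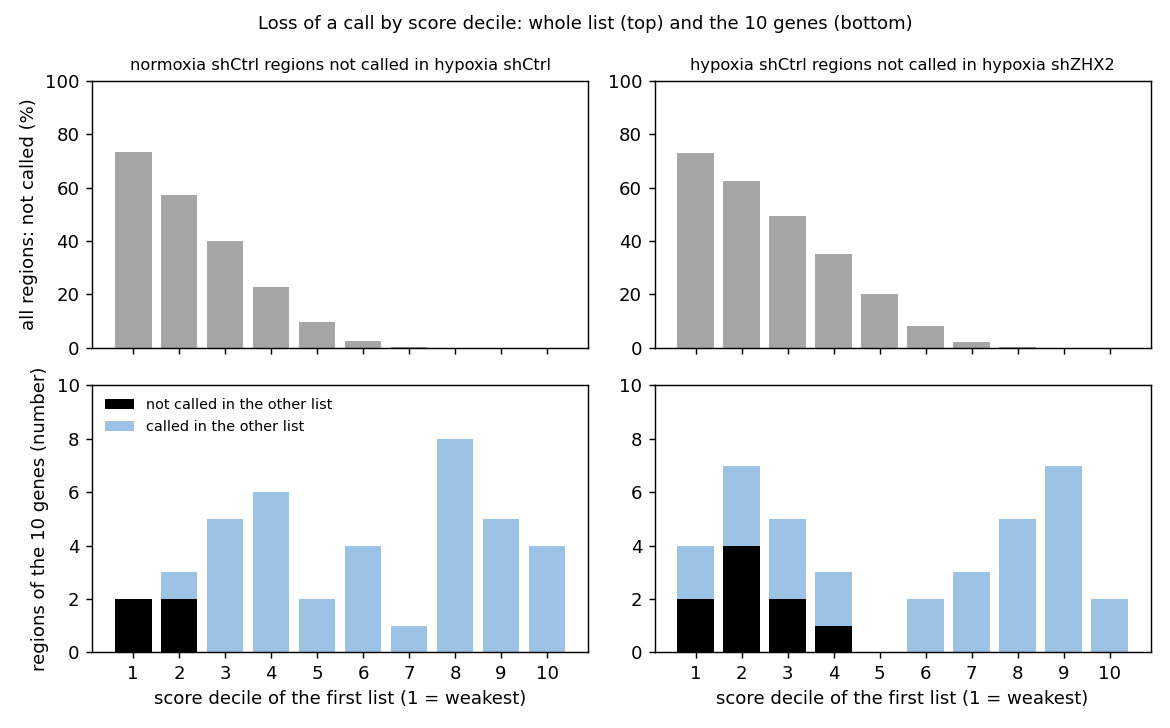
Share of all regions of the first list that were not called in the other list (top, percent) and number of regions of the 10 genes (bottom, black not called and blue called), by score decile of the first list from the weakest (1) to the strongest (10), for normoxia against hypoxia (left) and hypoxia shCtrl against shZHX2 (right). Black bars stand only in deciles 1 and 2 on the left and 1 to 4 on the right, where the share over the whole list is high as well.

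Other genes of the collagen pathway were compared by the same counts, with 30 genes for chaperones, further modifying enzymes, processing proteases, collagens and matrix partners. They had 192 merged sites, of which 115 were called in all 3 lists (59.9%), 33 in both shCtrl lists only (17.2%) and 29 in normoxia only (15.1%). Of their hypoxia shCtrl regions 39 of 155 were not called with shZHX2 (25.2%), and of their normoxia regions 33 of 181 were not called in hypoxia (18.2%), both near the shares of the whole lists. P4HB, the protein disulfide isomerase that is the other subunit of prolyl 4-hydroxylase, had 3 sites, and the collagen chaperone gene SERPINH1 had 4, all called in each list. The cartilage-associated protein gene CRTAP, the prolyl 3-hydroxylase gene P3H1 and the cyclophilin gene PPIB, whose products form 1 complex, had 2, 2 and 1 regions in each list.

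COL5A1, a chain of type V collagen, had 27, 23 and 18 regions in normoxia, hypoxia shCtrl and hypoxia shZHX2, and 14 of its 30 sites were missing from at least 1 list. ADAMTS2, which removes the amino-terminal propeptide of procollagen, had 18, 14 and 7 regions, and 12 of 19 sites differed. P3H2, a prolyl 3-hydroxylase, had 15, 11 and 11, and 8 of 16 sites differed. These 3 genes are named because they had the most differing sites of the 30. Sites missing from a list are common in the whole series, where 58.4% of sites were called in all 3 lists. COL4A2, a chain of type IV collagen, had a region within 1 kb of its start in both shCtrl lists and not with shZHX2. It was the only gene of the 30 for which this differed. The start of the neighbouring COL4A1, at 110307157 beside 110307284 for COL4A2, had no region within 1 kb in any list. The COL4A2 region therefore lay inside the gene near the edge of the window, and the start itself was not covered in any list. By the rule used above, with either end accepted where the strand was not given, 24 of the 30 genes were called in normoxia and in hypoxia, and 23 with shZHX2. The shares over all protein-coding genes were 71.4%, 69.6% and 67.8% in normoxia, hypoxia shCtrl and hypoxia shZHX2. FKBP10 counts among the called genes although no region was assigned to it in any list.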

How the data were processed

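ATAC-seq had been made from 9 T47D samples, 3 per group. Per the submitters' processing notes, FastQC, Bowtie2, SAMtools, MACS2 and hg38 were used, without versions or settings. How samples were combined, and whether reads were shifted for the transposase, is not stated in the sources used here. Each deposited list holds 9 columns without a header, with the authors' score, fold enrichment, −log10 p and −log10 q per region. The score equals the −log10 q multiplied by 10, without its decimals. The authors' fold is a ratio to the local background within a list. Folds of the 3 lists are printed and drawn side by side, but no change between lists was computed or tested from them. Lists were matched to groups by the oxygen level and hairpin in their names.

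From these, regions were assigned to genes edge to edge with the RefSeq table of GRCh38.p14, and 2 regions matched when they shared 1 bp. A region inside overlapping genes counted for each. Wilson intervals were computed with statsmodels 0.14.6 under Python 3.11.15. Overlap and assignment were tested on simulated data. Deciles rank the regions of 1 list by score. All 10 genes and each region missing from a list are named. Of the 30 other genes, those whose call within 1 kb of the start differed and the 3 with the most differing sites are named. P4HB, SERPINH1, CRTAP, P3H1 and PPIB are also named, chosen for their function after their values were seen. The members and lists were chosen with earlier results of these data known. The alternatives were the assignment window, gene set and distance rule, the −log10 q minimum, equal list lengths, the overlap, a gap and the start window. Sequences and strands came from the RefSeq promoter table. No genome sequence was used here.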

Additional observations from a re-analysis of the deposited data

How the results depend on the processing

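The number of genes with a called start, or a called end where the strand was not given, stayed between 8 and 10. The 4 planned comparisons of calls moved with the processing, as counts under 10 readily do. In 46 of 64 recomputed values the count stayed within 1.5 times the main one, but these pool counts of regions, starts and motifs with the comparisons. Apart from the number of hypoxia shCtrl regions, all of the 18 values that moved belonged to the 4 planned comparisons. Normoxia regions not called in hypoxia (4) became 2 with genes of every type, 1 with equal lengths by fold, 7 when 50% of the region had to be covered, and 0 at a −log10 q of at least 20 in normoxia alone. Hypoxia regions not called in normoxia (2) became 0 within 20 kb, 0 with genes of every type, 0 at a −log10 q of at least 20 in both lists or in the first alone, and 1 with equal lengths by score or by fold. Hypoxia shCtrl regions not called with shZHX2 (9) became 5 at a −log10 q of at least 20 in both lists, 2 in the first alone, and 3 with equal lengths by score. Those called with shZHX2 and not with shCtrl (0) became 1 at a −log10 q of at least 20 in both lists, 1 with 50% covered, 5 with equal lengths by score and 6 by fold. The number of hypoxia shCtrl regions fell from 38 to 25 at that minimum. In the comparison added after the data were seen, normoxia regions not called with shZHX2 (12) became 6 with equal lengths by score, 7 by fold and 6 at a −log10 q of at least 20 in normoxia alone, and those the other way round (1) became 6, 7 and 0, and also 0 within 20 kb or with genes of every type. No paired analysis was possible because each group has 1 list and no values per sample, and no replicate could be left out for the same reason. Depth per list is unknown.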

Other observations

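The closest region left out by the 50 kb limit lay by P4HA2. It was called in all 3 lists, 55510 bp from the gene in normoxia (chromosome 5, 132134338 to 132134637), with folds of 3.58, 4.68 and 4.32 in normoxia, hypoxia shCtrl and hypoxia shZHX2. The farthest region inside the limit was that of PLOD2 at 48116 bp.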
